A study of Homo sapiens with 4 samples.

Results

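Intronic substitution sites are single bases inside introns at which sequenced RNA recovered with PARP1 carried a base other than the reference. They were taken from the authors' site lists as every site whose mutation type is a substitution and whose first region label is intron, with no threshold beyond the authors' own. The list of the first PARP1 immunoprecipitation (IP 1) held 72647 of them among 166248 sites of all kinds, and the list of the second (IP 2) held 88937 among 229782. That is 43.7% and 38.7% of the lists, and the members together fell on 157475 distinct bases and strands of the GRCh38 genome build.

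The series holds 4 samples of HK-2 cells, an immortalised line of human proximal tubule epithelium, and its title sets PARP1 beside the matrix genes of tubular cells. In 2 samples, PARP1 was recovered from lysates with a Flag antibody on protein G beads, and RNA on the beads was sequenced. The other 2 are inputs, which are not analysed here, and no IP with a control antibody is among the 4. The labels give 1 cell line and no treatment. They do not say whether the IPs are separate cultures, and differences between the IPs may be purely technical.

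PARP1 is an abundant nuclear enzyme that builds chains of ADP-ribose on proteins, mainly at damaged DNA, and it also binds RNA. Introns are transcribed with the exons around them and are then cut out and mostly degraded in the nucleus, so RNA from introns is mostly young, unspliced RNA. Long genes are mostly intron, which is why site counts are given here both per gene and per length of intron. A site is listed only where tags (sequenced fragments) carry a mismatch, so an intron read without mismatches has no site. Whether a listed base differs from the reference in the DNA of HK-2 cells was not tested.

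The sequences below show what a strong member looks like. They are some of the intronic substitutions found in both IPs with at least 4 mutated tags in each, for which an annotated transcript of the same gene covers the base. Others that meet this rule are not printed. Each window runs 10 bases to either side of the site, 5′ to 3′ on the strand of the gene, read from GENCODE release 29 transcripts (GRCh38). The capital marks the reference base listed as substituted.
KCNMA1, chr10:77635544-77635564, minus strand: ccctctctccAtccttctcct
PKM, chr15:72203660-72203680, minus strand: aaggctcagtGcatccccgtg
PFKP, chr10:3105254-3105274, plus strand: gtggaaagtcCtgaaggggcc
DNM2, chr19:10810132-10810152, plus strand: ggaaagagacTggagcagcct
SNHG20, chr17:77089342-77089362, plus strand: gccaagttgtGggtgcagcat
TACC3, chr4:1738239-1738259, plus strand: gagctaccgtCgccagatggt
RPLP0, chr12:120198736-120198756, minus strand: actattatctGgttcagagtg
NUMBL, chr19:40684646-40684666, minus strand: cagttatcttGttatctgacc
All 4 reference bases occur among these capitals. In KCNMA1, which encodes the pore of a calcium-activated potassium channel, 6 of 6 tags were mutated in IP 1 and 7 of 9 in IP 2. In PFKP, a phosphofructokinase of glycolysis, 11 of 11 and 5 of 5 tags were mutated. In SNHG20, a noncoding RNA gene, the counts were 9 of 14 and 4 of 20, so a minority of tags carried the change in IP 2. PKM, the glycolytic pyruvate kinase, had 5 of 6 and 6 of 8 mutated tags.

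Most members rested on very few tags. The median site had 2 tags in both IPs, and sites with 2 of 2 tags mutated made up 88.5% of the members in IP 1 and 87.3% in IP 2. Every tag over the site was mutated at 97.7% and 97.4% of members. Sites with 10 or more tags numbered 173 in IP 1 and 241 in IP 2. Sites with 4 mutated tags were nearly as frequent as sites with 3, at 3169 against 4092 in IP 1 and 4317 against 5443 in IP 2, and sites with 5 dropped to 553 and 781. Tags over all members summed to 164657 in IP 1 and 204079 in IP 2. These sums cover listed sites alone and are not the depth of the libraries.

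The IPs shared few intronic substitutions base for base, but over all tag counts together a larger share of them than of most other kinds of site. The same base and strand was listed as an intronic substitution in both IPs at 4109 sites. That is 5.66% of the members of IP 1 (95% exact binomial interval 5.49 to 5.83) and 4.62% of those of IP 2 (4.48 to 4.76), where the share over all sites of every kind was 4.13% and 2.98%. Intronic deletions recurred at 1.81% and 1.44%, and intronic insertions at 4.27% and 3.48%. Substitutions on the strand opposite a gene recurred at 2.52% and 1.42%, and intergenic substitutions at 2.70% and 1.55%. Exonic substitutions recurred most, at 9.01% (interval 8.33 to 9.73) and 8.16% (7.54 to 8.82). Exonic and intronic intervals do not overlap in either IP, and all of these intervals cover counting error only.

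**Figure D1:**
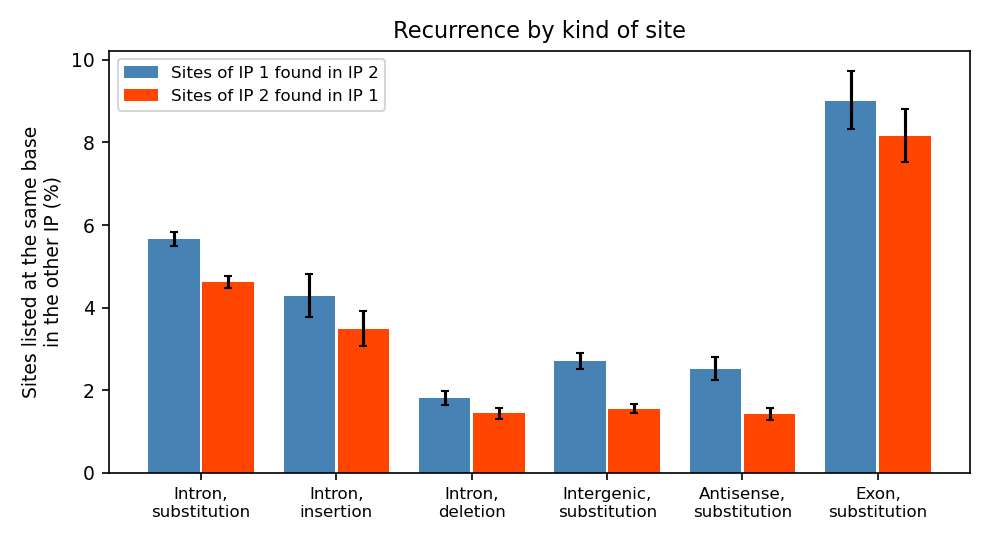
Share of sites (vertical axis, percent) listed at the same base and strand with the same kind of mutation in the other IP, for 6 kinds of site (horizontal axis). Bars are IP 1 (blue) and IP 2 (orange), and error bars are 95% exact binomial intervals. Intronic substitutions stand at 5.66% and 4.62%, below exonic and above intergenic and antisense substitutions.

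Recurrence was higher at members with more mutated tags in the IP they were counted in. It was 4.79% in IP 1 and 3.81% in IP 2 for members with 2 mutated tags, 11.6% and 9.66% with 3, 13.1% and 10.05% with 4, and 13.2% and 12.5% with 5 or more. The step from 2 to 3 mutated tags exceeds the intervals in both IPs, whereas the intervals from 3 tags upward overlap in IP 1. With 2 mutated tags, substitutions opposite a gene recurred at 2.13% and 1.18%, and intergenic ones at 2.46% and 1.35%, below intronic ones. With 5 or more, they recurred at 25.0% and 20.3% (opposite) and 10.4% and 12.1% (intergenic). Those intervals rest on few sites and overlap the intronic ones, so no lead of introns is seen there. Of the 4109 shared sites, 2336 had only 2 mutated tags in both IPs and 145 had 4 or more in both. The shared sites lay in 2483 genes, 1662 of which had just 1. An intronic substitution listed on one strand in IP 1 had a substitution on the other strand at the same base in IP 2 in 1.01% of cases.

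The 10 shared members with the most mutated tags, counted in the weaker IP, lay in protein-coding and noncoding genes. The first was in the minus-strand gene ENSG00000272822 on chromosome 12 (base 48938309), with 8 of 23 tags mutated in IP 1 and 7 of 18 in IP 2. This base and the ninth site, in ENSG00000259132 on chromosome 14 (base 22972819, with 5 of 21 and 6 of 21), are also exonic in the genes ARF3 and AJUBA, which overlap those loci on the same strand. The second was in intron 1 of the antisense transcript PCGF3-AS1 on chromosome 4 (base 773050, 7 of 8 and 9 of 9). In NALF1, on chromosome 13 (base 107694158), the site lay in intron 1 and had 7 of 7 tags mutated in both IPs. RBMS3, which encodes an RNA-binding protein, had 6 of 8 and 6 of 10 on chromosome 3 (base 29305521). The tetraspanin gene TSPAN4 had 6 of 6 and 8 of 8, and the sphingomyelinase gene SMPD4 had 6 of 6 and 7 of 7, in intron 10 of 19. PLCXD2 had 6 of 6 in both IPs, and MYO1E, which encodes a myosin of podocytes and other epithelia, had 5 of 11 and 7 of 8 in intron 1, at a base that is exonic in the overlapping gene ENSG00000259735. The KCNMA1 base printed above, exonic in another transcript of that gene, completes the set, so 4 of the 10 lie in an annotated exon on the same strand. Over all members that share was 4.30% in IP 1 and 3.84% in IP 2. Among members with 10 or more tags it was 20.2% and 12.9%. Of the 173 members of IP 1 with 10 or more tags, 20 (11.6%, interval 7.21 to 17.3) were also in IP 2.

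The members named many genes and were spread thinly over them. The authors' gene identifiers numbered 12179 in IP 1 and 13672 in IP 2. The median named gene had 3 sites in both IPs. Genes with a single site made up 29.5% and 28.0% of those named. The 100 genes with the most sites held 9.88% and 9.39% of all members, and 1486 and 1621 genes were needed to reach 50% of them. Protein-coding genes held 90.2% of members in IP 1 and 88.5% in IP 2.

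Of 18772 protein-coding genes with an intron, 52.7% were named in IP 1 and 56.7% in IP 2. In all, 8504 (45.3%) were named in both, and 2272 (12.1%) had an intronic substitution at the same base in both. Naming rose with intron length. When the genes were put in 10 equal bins by intron length, 3.09% of the shortest bin, with a median of 1.11 kb of intron, were named in both IPs. In the longest bin, with a median of 265 kb, 86.6% were. The longest bin held 43.3% of the sites in protein-coding introns in IP 1 and 44.8% in IP 2. Its density was nevertheless the lowest of the 10 bins in IP 1, at 40.8 sites per Mb of intron, and the second lowest in IP 2, at 50.8 per Mb. The seventh bin, with a median of 45.1 kb of intron, reached 67.6 and 78.5 per Mb. Genes of middling length thus had the densest introns, and the longest genes collected the most sites.

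For single genes with long introns the density of sites was alike in the 2 IPs. Across 3299 protein-coding genes with at least 100 kb of intron, the Spearman rho of the densities was 0.890, and across all 18772 it was 0.630. Each is a description across genes, which share their intron length and the genome in both IPs and are not independent replicates. The median gene of this size had 0.324 sites per 10 kb of intron in IP 1 and 0.435 in IP 2, and the 95th percentiles were 1.58 and 1.81. Among 1935 genes with at least 20 sites over both IPs, 91.7% lay within 2-fold of each other once the totals of the IPs were made equal.

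**Figure D2:**
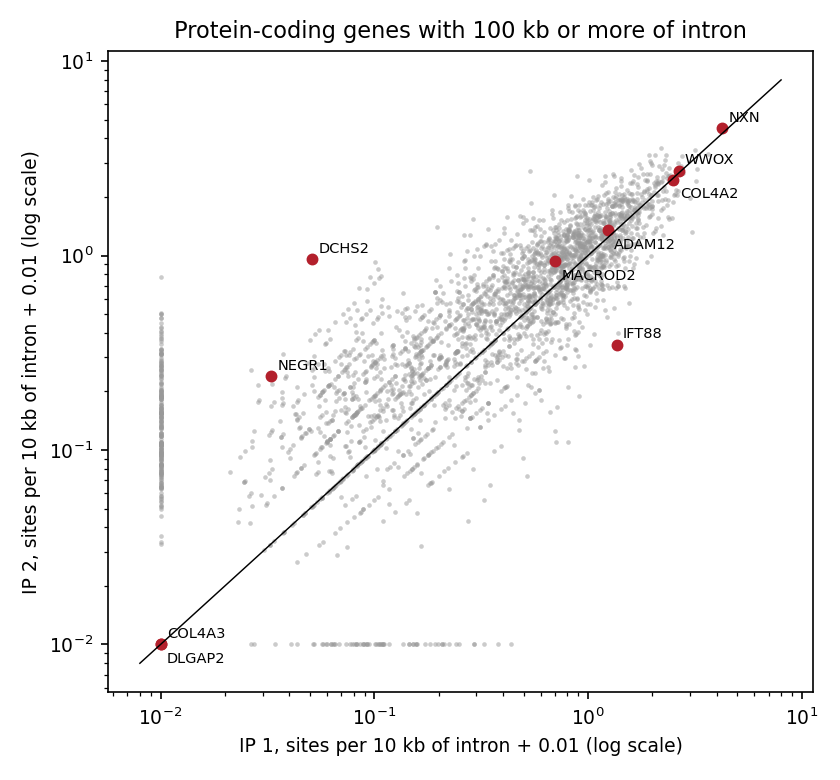
Density of intronic substitution sites per 10 kb of intron in IP 1 (horizontal) and IP 2 (vertical) for 3299 protein-coding genes with at least 100 kb of intron, both axes on a log scale after adding 0.01. Grey points are genes, red points are named genes, and the line marks equal density. WWOX, NXN and COL4A2 lie near the line, DCHS2 and NEGR1 above it and IFT88 below it, and points on the edges had no site in 1 IP.

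The genes with the most sites, ranked by the IP with fewer, were very long. Of the 10 with the most in IP 1, 8 were also among the 10 with the most in IP 2, all but LPP and PTPRG. WWOX, an oxidoreductase gene that covers a common fragile site of chromosome 16 (78099413 to 79212667), had 293 sites in IP 1 and 302 in IP 2, of which 28 were the same base. SMYD3, on chromosome 1 (245749342 to 246507312), encodes a methyltransferase of lysines and had 156 and 173, with 21 shared. MACROD2, whose product removes ADP-ribose from proteins (chromosome 20, 13995369 to 16053197), had 142 and 190, with 6 shared.

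Length alone does not set this order. WWOX had 2.64 sites per 10 kb of intron in IP 1 and 2.72 in IP 2, while MACROD2, with nearly 2 times the span, had 0.694 and 0.928. Among the 500 genes closest in intron length to WWOX, its density stood at percentile 100 in IP 1 and 99.8 in IP 2. MACROD2 stood at 79.2 and 82.6.

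LRMDA, a gene linked to pigment cells (chromosome 10), had 141 and 161 sites. ASTN2, which encodes an astrotactin known from neuronal migration (chromosome 9), had 116 and 128. KCNMA1 (chromosome 10) had 111 and 115. DOCK1, an activator of the small GTPase Rac (chromosome 10), had 104 and 119. LPP, a LIM-domain protein of focal adhesions (chromosome 3), had 97 and 105. MAD1L1, a spindle checkpoint gene (chromosome 7), had 94 and 123, and PTPRG, a receptor tyrosine phosphatase gene (chromosome 3), had 94 and 99. Shared bases in these 7 genes numbered from 6 in LRMDA and PTPRG to 14 in DOCK1, so most sites of a gene were listed in 1 IP alone even where its totals matched.

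The densest genes were mostly short, and the 10 genes with the most sites were not among them. They are the 10 genes with the highest density in the weaker IP among 1534 protein-coding genes that had at least 10 sites in each. TMEM44 led, with 22 sites in IP 1 and 26 in IP 2, or 5.07 and 5.79 per 10 kb of intron. DDB2, which recognises ultraviolet damage in DNA, had 11 in both, or 5.03 and 5.53 per 10 kb. POLR2A, the largest subunit of RNA polymerase II, had 12 in both, or 5.48 and 5.02 per 10 kb, and 3 of its bases were shared. ZNF787, a zinc finger gene, had 14 and 20 sites, or 4.63 and 6.61 per 10 kb. The actin-binding gene COTL1 had 4.59 and 5.03 per 10 kb, the redox gene NXN 4.24 and 4.53, and the chaperone gene DNAJC5 4.22 and 4.50. ENSG00000272822 had 4.16 and 4.35, the dehydrogenase gene D2HGDH 4.14 and 6.22, and FANCA, of the Fanconi anaemia core complex, 4.04 and 5.19. NXN stands out by size, since it kept this density over 174578 bases of intron with 74 and 81 sites.

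A few genes differed widely between the IPs. DCHS2, a cadherin gene, had 1 site in IP 1 and 23 in IP 2. NEGR1, a neuronal adhesion gene, had 2 and 20, and NRG3, which encodes a neuregulin, had 3 and 21. The reverse held for IFT88, a gene of cilium transport, with 16 and 4, for BAIAP2, an actin regulator, with 18 and 6, and for DCAF12, which encodes an adaptor of a ubiquitin ligase, with 15 and 5. They were chosen as the extremes of the ratio and no test was made, because each IP is 1 library. PARP1 itself (chromosome 1, 226360691 to 226408079) had 6 intronic substitutions in IP 1 and 8 in IP 2, 1 of them at the same base.

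Some long genes had none. The 5 with the longest introns and no member in either list were ENSG00000283563, DLGAP2, AGBL1, IQCJ-SCHIP1 and ENSG00000285713. By position, substitutions on their sense strand that the lists give to an overlapping gene or to no gene numbered 69 and 79 in ENSG00000283563, 5 and 5 in AGBL1, 28 and 31 in IQCJ-SCHIP1, and 21 and 31 in ENSG00000285713. DLGAP2, a gene of the postsynaptic density with 955720 bases of intron on chromosome 8, had 0 in both. It lies in 2 abutting stretches that hold no site of any kind, parted by 1 base with an opposite-strand substitution of IP 2. With at least 100 kb of intron, 114 genes had no sense substitution by name or position in either IP. Of these, 28, DLGAP2 included, have over 99% of their span in 33 stretches of at least 500 kb in which neither list holds a site of any kind. Such stretches cover 0.935% of protein-coding intron and stay in the denominators of all densities. Why these stretches hold no site was not tested.

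The lists label sites opposite a gene apart from intronic ones, so members lie on the strand of their gene by label. Within the introns of protein-coding genes, sense members stood at 50.9 per Mb in IP 1 and 61.5 per Mb in IP 2. Substitutions of any label on the opposite strand of these introns stood at 9.87 and 16.8 per Mb. Sense substitutions with another label were not counted. Of sense members and opposite-strand substitutions together, the opposite strand held 16.2% in IP 1 (interval 16.0 to 16.5) and 21.5% in IP 2 (21.2 to 21.7). In 6406 genes that overlap no other annotated gene the shares were 14.1% and 19.2%, only slightly lower. With at least 3 mutated tags required, the opposite strand held 7.12% and 9.04%. Of the 1534 genes with at least 10 sites in each IP, 9 in IP 1 and 16 in IP 2 had more opposite than sense substitutions. These genes were kept for their sense sites, so the low counts follow in part from that choice.

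Along genes the sites were spread almost evenly from start to end. Each gene was cut into 10 equal segments of its span, and sites were divided by the intron length in each segment. In IP 1 the density was 49.6 sites per Mb in the first segment, 52.9 in the fifth and 42.4 in the last (95% exact Poisson interval 41.1 to 43.7). In IP 2 it was 61.1, 62.0 and 52.5 (51.1 to 53.9). The last segment is the lowest in both IPs, and its interval meets no other segment. Substitutions on the opposite strand of genes that overlap no other went the other way, from 7.74 per Mb in the first segment to 12.5 in the last in IP 1 and from 15.7 to 18.1 in IP 2, with overlapping intervals in IP 2. The ratio of first to last segment averaged 1.17 over the IPs, and 1.06 when each gene with at least 10 sites had equal weight.

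**Figure D3:**
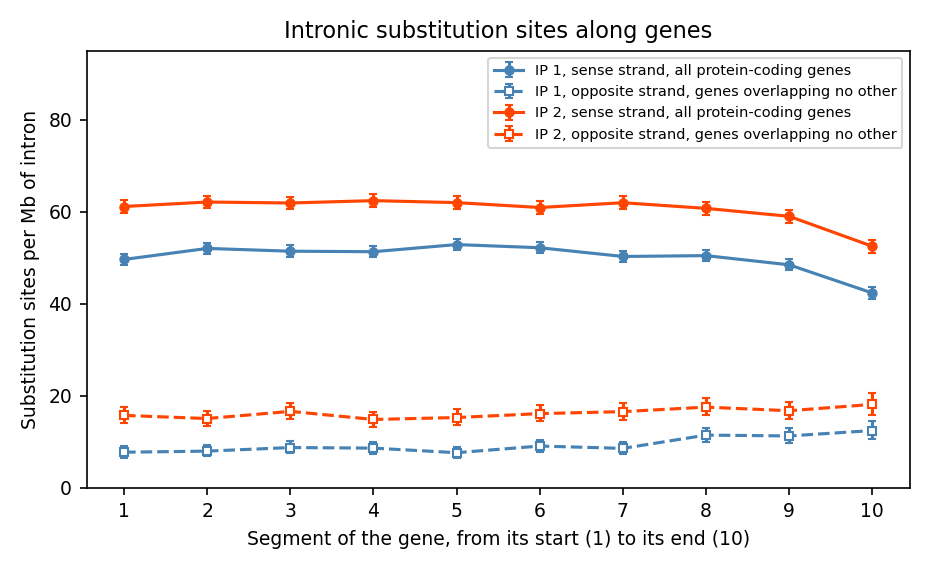
Intronic substitution sites per Mb of intron (vertical) in each segment of the gene from start to end (horizontal), in IP 1 (blue) and IP 2 (orange). Filled points and solid lines are the sense strand of all protein-coding genes, open squares and dashed lines the opposite strand of genes that overlap no other, and bars are 95% exact Poisson intervals. Sense density is nearly level and lowest in the last segment.

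In absolute distance from the gene start, the density was highest at 10 to 30 kb, with 62.5 sites per Mb in IP 1 and 73.0 in IP 2. It was 53.4 (interval 49.1 to 57.8) and 59.8 (55.4 to 64.5) within the first 1 kb. Beyond 400 kb it fell to 28.6 and 37.4. Only long genes have introns that far out, and genes of at least 300 kb had 34.9 and 44.7 sites per Mb over their whole introns. In these long genes the density was already low in the first segment, with 34.9 per Mb in IP 1 and 46.3 in IP 2, and it was 33.5 and 41.7 in the last. The density beyond 400 kb was below even that of this last segment in both IPs. Whether the low density far from the start goes with gene length or with distance was not tested. Genes of 30 to 100 kb showed a larger step, from 62.0 to 48.0 in IP 1 and from 73.8 to 63.6 in IP 2.

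First introns were somewhat denser than later ones. In 1 transcript per gene, first introns had 61.0 sites per Mb in IP 1 (interval 60.0 to 61.9) and 72.5 in IP 2 (71.5 to 73.5), against 52.5 and 63.5 in later introns. They held 26.7% and 26.4% of sites on 23.9% of the intron bases. By distance to the nearest exon, density was 53.5 and 64.4 per Mb within 100 bases, 58.0 and 67.9 between 100 and 1000 bases, and 48.3 and 58.7 farther in. The middle class is the densest in both IPs and its interval stands clear of the farther class. Over 1000 bases from any exon of the gene lay 74.4% and 75.0% of sites, on 77.5% of the intron bases, and the median distance was 3344 and 3381 bases.

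Within some single genes the sites were lopsided in the same way in both IPs. In 146 genes with at least 40 sites in each IP, the share of sites in the front of the gene (nearer the start than the midpoint) was set against the share of intron there, counting sites in GENCODE introns of the gene. The deviations had a Spearman rho of 0.707 across these genes, as a description, and had the same sign in both IPs in 113 of the 146. In 12 genes the interval of the front share lay above the intron share in both IPs, in 15 it lay below in both, and in 0 it lay above in 1 IP and below in the other.

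Among the genes with the most sites, ASTN2 was strongly end-heavy, with 26 of 116 sites in the front in IP 1 and 34 of 127 in IP 2. Its first 4 segments held 3, 2, 2 and 5 sites in IP 1, and the sixth alone held 24 in both IPs. PTPRG showed the reverse, with 68 of 94 and 61 of 96 in the front, and 0 and 2 in its last segment. MACROD2 had 84 of 142 and 132 of 190 in the front, and MAD1L1 had 35 of 93 and 45 of 120. In WWOX the density was 1.37 per 10 kb in the first segment of both IPs and had reached 3.68 and 3.32 by the fourth. It was 2.60 and 2.96 in the eighth, 3.68 and 3.77 in the ninth, and 1.18 and 1.36 in the last.

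**Figure D4:**
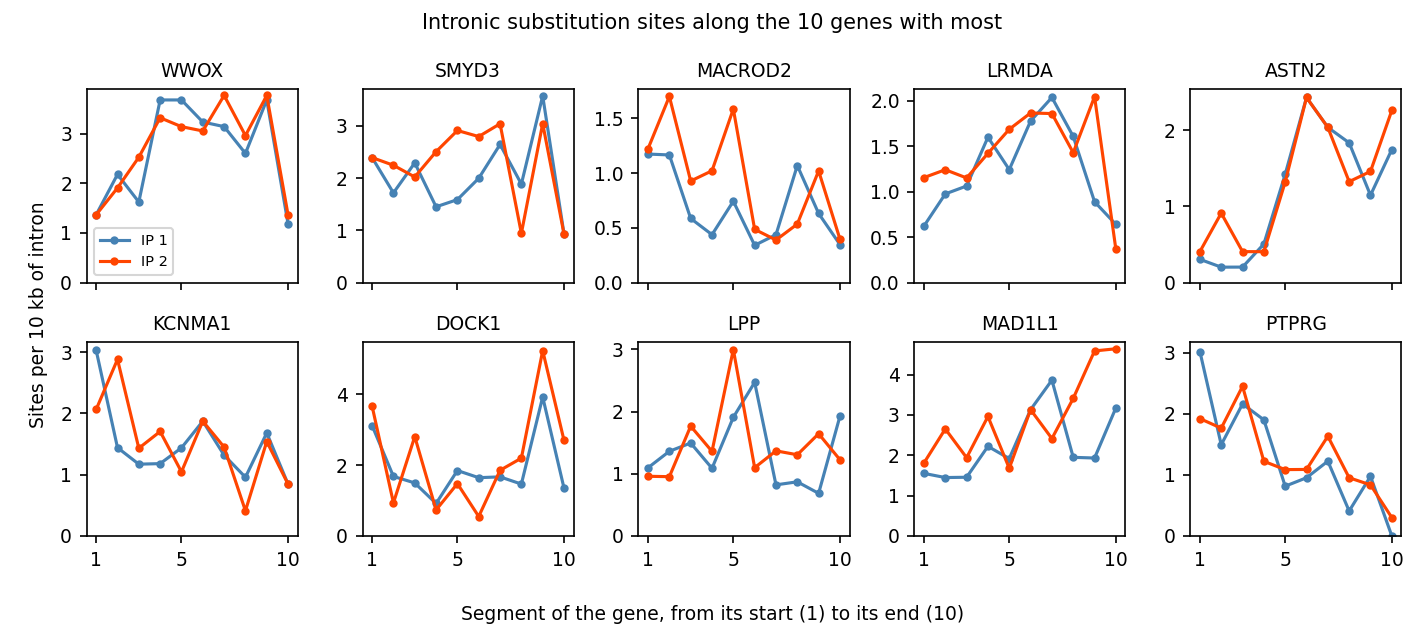
Intronic substitution sites per 10 kb of intron (vertical, own scale in each panel) in each segment of the 10 genes with the most sites, from start to end (horizontal), in IP 1 (blue) and IP 2 (orange). The lines of the 2 IPs follow each other in ASTN2, with few sites in the first 4 segments, in PTPRG, with most in the front, and in WWOX, with low ends.

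Other lopsided genes, chosen after their values were seen, include the nuclear receptor gene RORA, with 68 of 84 and 72 of 98 sites in the front, and the scaffold genes MAGI1, with 64 of 93 and 85 of 121, and MAGI2, with 57 of 80 and 73 of 104. Toward the end lay BCAS3, with 7 of 54 and 12 of 62 in the front, the navigator gene NAV2, with 19 of 88 and 29 of 110, the phosphatase gene PTPRD, with 9 of 55 and 16 of 62, and the collagen gene COL4A2, with 16 of 47 and 13 of 46. Where the lists name a shorter gene than GENCODE does, sites near the start carry another label. When all sense substitutions were counted by position, 12 front-heavy and 11 end-heavy genes stayed so, and 4, among them NRXN3, EPHB1 and KALRN, did not. PDE10A, RBMS3 and KAZN, among the 15 end-heavy genes, have 0 assigned sites in the front in both IPs. By position, sense substitutions in their front introns numbered 6 and 10 in PDE10A, 14 and 5 in RBMS3, and 8 and 27 in KAZN. All of these carry another label, and these genes stayed end-heavy by position.

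Neighbouring sites were common but ran in short groups. Another intronic substitution of the same IP and strand lay within 50 bases of 15.3% of members in IP 1 and 15.01% in IP 2, close to the 16.7% and 16.3% of intergenic substitutions and far under the 60.3% and 61.2% of intronic deletions. Within 10 bases the shares were 6.18% and 6.07%. No run of sites joined at 50 bases held more than 4. Runs of 4 in IP 1 were in FARS2, CELF1 and ZFPM2-AS1, and those in IP 2 were in AFAP1, MICOS10, LOXL2, DHDDS and EXPH5, so no gene had such a run in both. Joining left 66792 and 81899 separate places. Members with such a neighbour recurred at 4.97% in IP 1 and 4.00% in IP 2, and members alone in 50 bases at 5.78% and 4.73%.

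The base at the site could be read for 3715 members of IP 1 and 4214 of IP 2 (5.11% and 4.74%), those that an annotated exon of some transcript covers with room for the window. These need not stand for the deeper intron. The 4 reference bases were close to even, between 24.4% and 26.0% each in IP 1 and between 23.2% and 26.5% in IP 2. The dinucleotide CG, which reads the same on both strands, held more of the sites than of the bases around them. The substituted base was the C or the G of a CG at 13.0% of members in IP 1 (interval 11.96 to 14.2) and 14.4% in IP 2 (13.4 to 15.5), against 4.78% and 4.28% of the flanking bases in the same windows. Among 282 shared members with sequence the share was 19.1% (interval 14.7 to 24.2), against 5.76% of flanking bases. Exonic substitutions of IP 1 gave 15.5% against 6.05%, and substitutions opposite a gene 17.4% against 6.49%, so those kinds of site showed a CG excess too.

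The windows below show shared members at a CG, again with the substituted base in capitals. TACC3, printed above, is a further case.
PFKL, chr21:44314456-44314476, plus strand: gtcggggcccGggggtgggtt
MAPK12, chr22:50254123-50254143, minus strand: agctatgctgCggcctgaggc
SOD2, chr6:159680877-159680897, minus strand: gtggcgcgacCggagctcact
In PFKL, another phosphofructokinase gene, 3 of 3 tags were mutated in both IPs. In SOD2, which encodes the manganese superoxide dismutase of mitochondria, 3 of 3 and 5 of 5 were. The stress kinase gene MAPK12 had 4 of 4 and 3 of 3.

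Matrix genes, the subject of the series title, were named somewhat more often than genes at large, and they are longer. Of 76 listed matrix genes, 53 (69.7%) had an intronic substitution in both IPs, against 45.3% of all protein-coding genes. There were 12 with none in either, against 6745 of all 18772 protein-coding genes. Their median intron length was 62.6 kb against 25.0 kb over all genes. In the length bins with medians of 45.1 and 69.0 kb of intron, 62.7% and 70.0% of all protein-coding genes were named in both. Set against genes of like intron length, the median matrix gene stood at percentile 56.4 in IP 1 and 59.4 in IP 2, where the median over all genes was 46.0 in both. At least 10 sites in each IP, counted by the gene named, were found in 16 of the 76, against 1595 of all 18772 genes. A shared base was found in 19, against 2272 (12.1%) of all genes.

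Among collagens, the fibre and network proteins of the matrix, 14 of 24 (58.3%) were named in both IPs, against 45.3% of all protein-coding genes. Their introns are long, with a median of 125 kb, and for that length the median collagen gene was low, at percentile 31.6 in IP 1 and 34.4 in IP 2 against 46.0 over all genes. COL4A2 and COL4A1, the paired chains of basement membrane collagen that lie head to head on chromosome 13 (110305812 to 110513209 and 110148963 to 110307233), led with 50 and 49 sites and with 35 and 41. Both were near the top for their intron length, at percentiles of 99.4 and 98.2 for COL4A2 and 98.8 and 99.4 for COL4A1. COL4A2 had 6 shared bases and COL4A1 had 1. The other type IV chains were nearly empty over introns of like or greater length. COL4A3 had 0 in both, COL4A4 had 0 and 1, COL4A5 had 2 and 2, and COL4A6 had 1 and 1. COL27A1 had 30 in both, or 2.10 and 2.03 per 10 kb of intron. COL1A1, COL1A2 and COL3A1, chains of the fibrillar collagens, had 0 in both, over introns of 8525, 25516 and 31616 bases.

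All 14 genes of laminins and other basement membrane proteins were named in both IPs, against 45.3% of all protein-coding genes. Their median intron length was 77.4 kb, and 70.0% of all genes in the length bin with a median of 69.0 kb were named in both. Their median percentile for intron length was 65.3 and 79.7, against 46.0 over all genes. LAMA5, the laminin alpha chain of many epithelia, had 20 and 26 sites, or 3.77 and 5.55 per 10 kb of intron. LAMA3 had 28 and 25, LAMC1 10 and 18, and LAMB1 7 and 23. The linker nidogen NID1 had 14 and 15, the proteoglycan HSPG2 (perlecan) 19 and 13, and AGRN (agrin) 5 and 11. LAMA4 had 2 in both, over 134605 bases of intron.

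Glycoproteins and proteoglycans of the matrix numbered 19, and 11 (57.9%) had a site in each IP, against 45.3% of all protein-coding genes. Their median intron length was 31.9 kb, and 54.2% of all genes in the length bin with a median of 30.2 kb were named in both. Their median percentile was 65.2 in IP 1 and 48.6 in IP 2, against 46.0 over all genes. FN1 (fibronectin) had 13 and 10 sites, FBN1 (fibrillin) 14 and 11, FBLN1 (fibulin) 12 and 11, and VCAN (versican) 9 and 10, with 3 shared bases. POSTN, DCN and LUM had 0 in both. Of 19 enzymes and inhibitors that act on matrix, 14 (73.7%) were named in both, against 45.3% of all protein-coding genes. Their median intron length was 36.0 kb and their median percentile 80.0 and 77.4. ADAM12, a metalloprotease gene on chromosome 10 (126012381 to 126388455), had 46 and 50 sites with 9 shared bases, the most of the 76 genes. LOXL2, a lysyl oxidase that cross-links collagen, had 27 and 44. TIMP2, an inhibitor of metalloproteases, had 24 and 19, while its relative TIMP3 had 0 in both over 56740 bases of intron. The collagen hydroxylase genes PLOD2 and P4HA1 had 14 and 12 and 12 and 12.

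Marker genes of other cell types were checked against the label. Of 17 kidney epithelial genes, 12 (70.6%) were named in both IPs, against 45.3% of all protein-coding genes. For intron length, their median percentile was 48.4 in IP 1 and 44.7 in IP 2, near the 46.0 over all genes. PAX8, a renal transcription factor, had 7 and 9 sites, CDH6, a proximal tubule cadherin, 9 and 12, and HAVCR1, an injury marker of the tubule, 4 and 4. LRP2 had 1 and 4, CUBN had 1 and 5, and EPCAM, KRT19 and AQP1 had 0. Endothelial markers were named in both in 3 of 6 (50%) and leukocyte markers in 1 of 5 (20%, LYN, with 8 and 5). Fibroblast and smooth muscle markers were named in both in 1 of 6 (16.7%). The median percentiles were 20.4 and 19.0 (endothelium), 36.1 and 33.9 (leukocytes) and 27.5 and 18.1 (fibroblasts and smooth muscle). PTPRC, CD3E and ITGAM had 0 in both. All 6 neuronal markers were named in both, among them CNTNAP2 with 22 and 30 sites and SYT1 with 17 and 31. Their median intron length was 547 kb, and for that length their median percentile was 52.8 and 54.1. Site density here is not a level of expression, so this comparison bears only loosely on cell identity.

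Noncoding genes held 6808 members in IP 1 and 9702 in IP 2. Of those named, 1486 were in both lists, which is 68.0% of the 2186 in IP 1 and 50.9% of the 2918 in IP 2. For protein-coding genes the shares were 85.9% and 80.0%. The noncoding genes with the most sites, chosen after their values were seen, were PVT1, a long noncoding RNA gene, with 58 and 63 sites, UBA6-DT, with 55 and 51, and MIR3681HG, a microRNA host gene, with 44 and 61.

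Density also differed between chromosomes. Chromosome 19, which is gene-rich, had the highest, with 78.3 sites per Mb of protein-coding intron in IP 1 (95% exact Poisson interval 75.2 to 81.5) and 86.4 in IP 2 (83.1 to 89.7). Chromosome 20 followed in IP 2, with 85.7, and chromosome 17 in IP 1, with 70.6. Chromosome X had the lowest, with 25.3 (interval 23.9 to 26.8) and 29.8 (28.3 to 31.4), and chromosome 5 the next lowest, with 36.5 and 46.6. IP 2 was higher than IP 1 on every chromosome, as in its total.

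**Figure D5:**
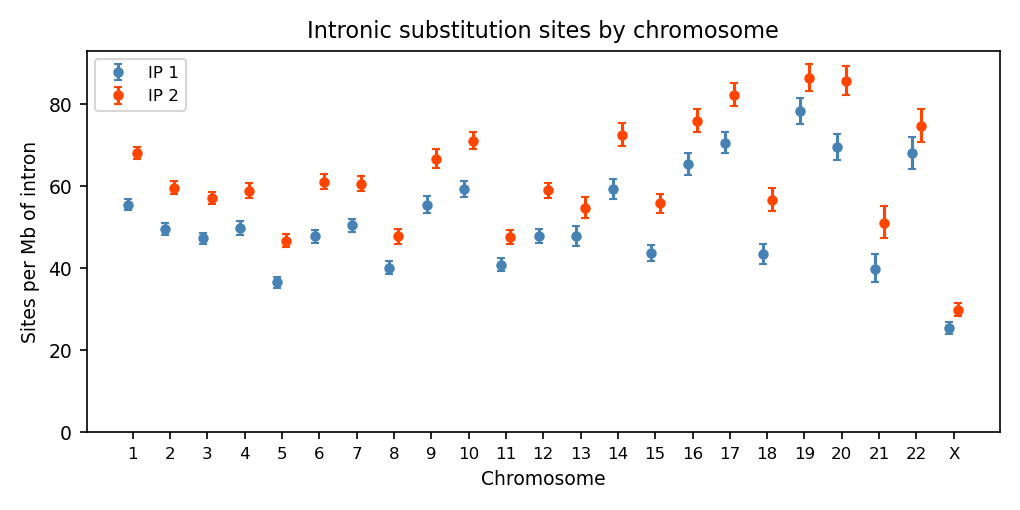
Intronic substitution sites per Mb of protein-coding intron (vertical) on each chromosome (horizontal) in IP 1 (blue) and IP 2 (orange), with 95% exact Poisson intervals. Chromosome 19 is highest, at 78.3 and 86.4, and chromosome X lowest, at 25.3 and 29.8.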

How the data were processed

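RNA from 2 PARP1 IPs of HK-2 cells was analysed as 1 site list each, and the 2 inputs were not used here. Reads were handled with bcl2fastq and TopHat2 on GRCh38, per the submitters' processing notes. The sources used here do not give the site caller, its thresholds, the strand protocol or the treatment of duplicates. Per the file headers the authors deposited, for each site, whole-number counts of tags and mutated tags and an FDR, a q-value, which was at most 0.00909 in IP 1 and 0.00926 in IP 2. Reads were amplified and no molecular identifiers are described, so tags may be copies of 1 molecule.

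Sites were matched by base and strand. Introns were the span of a GENCODE release 29 gene less all its exons. Counts per gene follow the authors' gene identifiers (12090 of 12179 and 13565 of 13672 matched), and densities count those sites that also lie in GENCODE introns of that gene (95.7% and 96.0%). Intervals are exact at 95% (Clopper-Pearson or Poisson) and no test was made, because each IP is 1 library and the site lists alone were used. The position and spacing steps were tested on simulated data. The check of the matching step had an outcome fixed by how the data were made, so it could not have failed. Tools were Python 3.11.15, numpy 2.4.6, pandas 2.3.3, scipy 1.17.1 and matplotlib 3.10.9.

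Named genes are the 10 with the most sites, the 10 densest, the 10 strongest shared sites, the 5 longest with none, the 3 extremes of the ratio in each direction (after adding 0.5 to each count), up to 4 matrix genes with most sites and 2 with none, and PARP1. Other genes were named after their values were seen, and a few items are not reported here. Members and lists were chosen with earlier results of these data known. Alternatives were stricter tag counts, other matching windows, joined sites, other gene sets and leaving out each IP.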

Additional observations from a re-analysis of the deposited data

How the results depend on the processing

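Of 41 alternatives, 25 left a result within the spread of the IPs (for counts, within 1.5 times) and 16 moved it. For averaged results, leaving out 1 IP always fell within that spread, because the other IP helps to set it. Those alternatives, among the 25, could not have moved a result. For genes named in both, leaving out 1 IP counted the genes named in the other, a different quantity, and these alternatives are also among the 25. None reversed a direction. Averaged over the IPs, recurrence was 5.14%, against 4.27% with at least 3 mutated tags required in both and 5.89% on either strand. With at least 3 mutated tags the ratio of first to last segment was 1.34 (1.17 as reported), of first to later introns 1.29 (1.15), and of near to far from exons 1.26 (1.10). The same setting gave 17.5% of bases in CG (13.7%), 11.3% within 50 bases (15.1%) and 8.08% on the opposite strand (18.9%). It left 2095 genes (8504) and 23 matrix genes (53) named in both. A shared base left 2272 genes. The ratio of segments was 1.13 in genes of at least 100 kb, 1.19 with all sense substitutions and 1.06 with genes weighted equally. In CG lay 19.1% of shared sites, and 22.1% had a neighbour within 200 bases. The settings with all sense substitutions, equal weights, sites in no annotated exon (recurrence 5.04%) and, for the strand, genes of at least 100 kb were chosen after seeing the data.

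Leaving out each IP in turn gave 9896 to 10635 genes and 58 to 59 matrix genes named in the IP that remained. Such counts cannot fall below the counts named in both. Matrix medians were then 0.544 to 0.743 sites per 10 kb. The ratios, which are then those of the other IP, were 1.16 and 1.17 (segments), 1.14 and 1.16 (introns) and 1.10 and 1.11 (exons). The shares were likewise 13.0% and 14.4% (CG), 15.01% and 15.3% (spacing) and 16.2% and 21.5% (opposite strand). Recurrence and the naming of genes in both need both IPs. No paired analysis was possible because the inputs, which share numbers with the IPs, have no values here. With a median of 2 tags, a base absent from 1 list may not have been read there, so absence of a site does not show absence of RNA.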
